A study of Homo sapiens with 4 samples.

Results

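Amino acid carriers are the membrane proteins through which a cell takes up, exchanges and redistributes amino acids. The loci described here were chosen by name: every locus with a symbol that begins with SLC1A, SLC6A, SLC7A, SLC36A, SLC38A or SLC43A, and SLC3A2. Of 22679 named genes in the deposited values, 64 met this rule, on 65 lines because SLC6A9 has 2. Of the 64, 58 are carrier genes, 3 are pseudogenes (SLC6A10P, SLC7A5P1 and SLC7A5P2), 2 are antisense RNAs and 1, SLC7A6OS, is a separate gene named for its place on the opposite strand of SLC7A6. Family 6 also holds carriers of GABA, taurine, creatine and monoamines, which the rule takes in by name.

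Poly(A) RNA-seq was made from IMR90 cells, fibroblasts of human lung grown as an established line and used at passage 16. There were 4 groups with 1 library each. In oncogene-induced senescence (OIS), cells with a retroviral ER:H-RasV12 fusion were kept in 10 nM tamoxifen for 8 days. In the H3.3cs1 groups, a retrovirus carried cleaved histone H3.3 with a Flag tag, and RNA was taken 13 days (H3.3cs1 late) or 3 days (H3.3cs1 early) after infection. Growing cells carried the empty pBabe retrovirus and were cultured for 13 days. No day 3 library with empty vector and no tamoxifen-treated library without the fusion was analysed here. The cleaved histone thus cannot be told apart from recent infection in the early library. In OIS, RAS activity cannot be told apart from tamoxifen, vector and time (8 days in tamoxifen, beside 13 days of culture for growing cells). With 1 library a group there is no replicate error and no test, and every difference describes these libraries. In bulk RNA, fewer cells that express a gene and less of its RNA per cell cannot be told apart.

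Carriers differ in what drives them and where they sit. Many of the SLC7 light chains reach the cell surface only when bound to the heavy chain SLC3A2 (CD98), and exchange one amino acid for another. Carriers of families 1, 6 and 38 mostly use the sodium gradient, and so build up the glutamine, serine and alanine that exchangers then spend on the uptake of leucine and other essential amino acids. Several members work on the lysosome, where amino acids are sensed for the growth kinase complex mTORC1. When amino acids run short, the transcription factor ATF4 is known to raise the genes of several carriers and of enzymes that make amino acids.

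Levels are given in FPKM, a fragment count scaled to transcript length and to the size of the library, so levels of different genes are compared per length. The words rose and fell are kept for differences of at least 1 in log2(FPKM + 1), a size of 2-fold. Folds are sizes on the log2(FPKM + 1) scale throughout, and so come out too small for genes near or under 1 FPKM. Between 11063 and 11271 genes per library reached 1 FPKM, and 12183 did so in at least 1 library and were compared. From low values, sequencing depth was put at 85.6% of the growing library for OIS, 77.1% for H3.3cs1 late and 94.9% for H3.3cs1 early, which are rough figures. HRAS stood at 3153 FPKM in OIS and between 41.9 and 49.8 in the other libraries. Of the genes of histone H3.3, H3F3B stood at 90.5 FPKM in OIS, 450 in H3.3cs1 late, 229 in H3.3cs1 early and 105 in growing cells, and H3F3A at 236 in OIS, 132 in late, 129.5 in early and 190.5 in growing cells. Of 8 fibroblast markers 7 were found, with a summed level of 4855 FPKM in OIS, 11035 in H3.3cs1 late, 6044 in H3.3cs1 early and 10561 in growing cells. The leukocyte markers summed to at most 0.313 FPKM in any library, with PTPRC at or near 0 in each.

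Of the 58 carrier genes, 32 reached 1 FPKM in at least 1 library, and 24 did so in all 4. By family these were 8 of 11 in SLC38, 7 of 13 in SLC7, 6 of 19 in SLC6, 5 of 7 in SLC1, 3 of 3 in SLC43, 2 of 4 in SLC36, and SLC3A2. The other 26 carrier genes and 3 further loci stayed below, with no value above 0.284 FPKM, and 10 loci were listed at 0 in every library. Among those below were the carriers of noradrenaline, dopamine and serotonin (SLC6A2, SLC6A3 and SLC6A4), the GABA carriers SLC6A11 and SLC6A13, and SLC7A9 and SLC7A13 of kidney epithelium. A value of 0 in such files can be a failed estimate and is not read as absence. No compared member was at 0 in any library.

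Summed over all 64 loci, the level was 617 FPKM in OIS, 872 in H3.3cs1 late, 582 in H3.3cs1 early and 873 in growing cells. As a share of all named genes this was 0.119% in OIS, 0.1997% in H3.3cs1 late, 0.159% in H3.3cs1 early and 0.199% in growing cells. SLC38A2, SLC1A5, SLC3A2 and SLC7A5 together made up 44.0% of it in OIS, 65.0% in H3.3cs1 late, 60.4% in H3.3cs1 early and 69.8% in growing cells. The late and growing libraries thus held about equal totals, and the OIS and early libraries held less. The summed level of these 4 genes was 271 FPKM in OIS, 566 in late, 352 in early and 609 in growing.

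**Figure D1:**
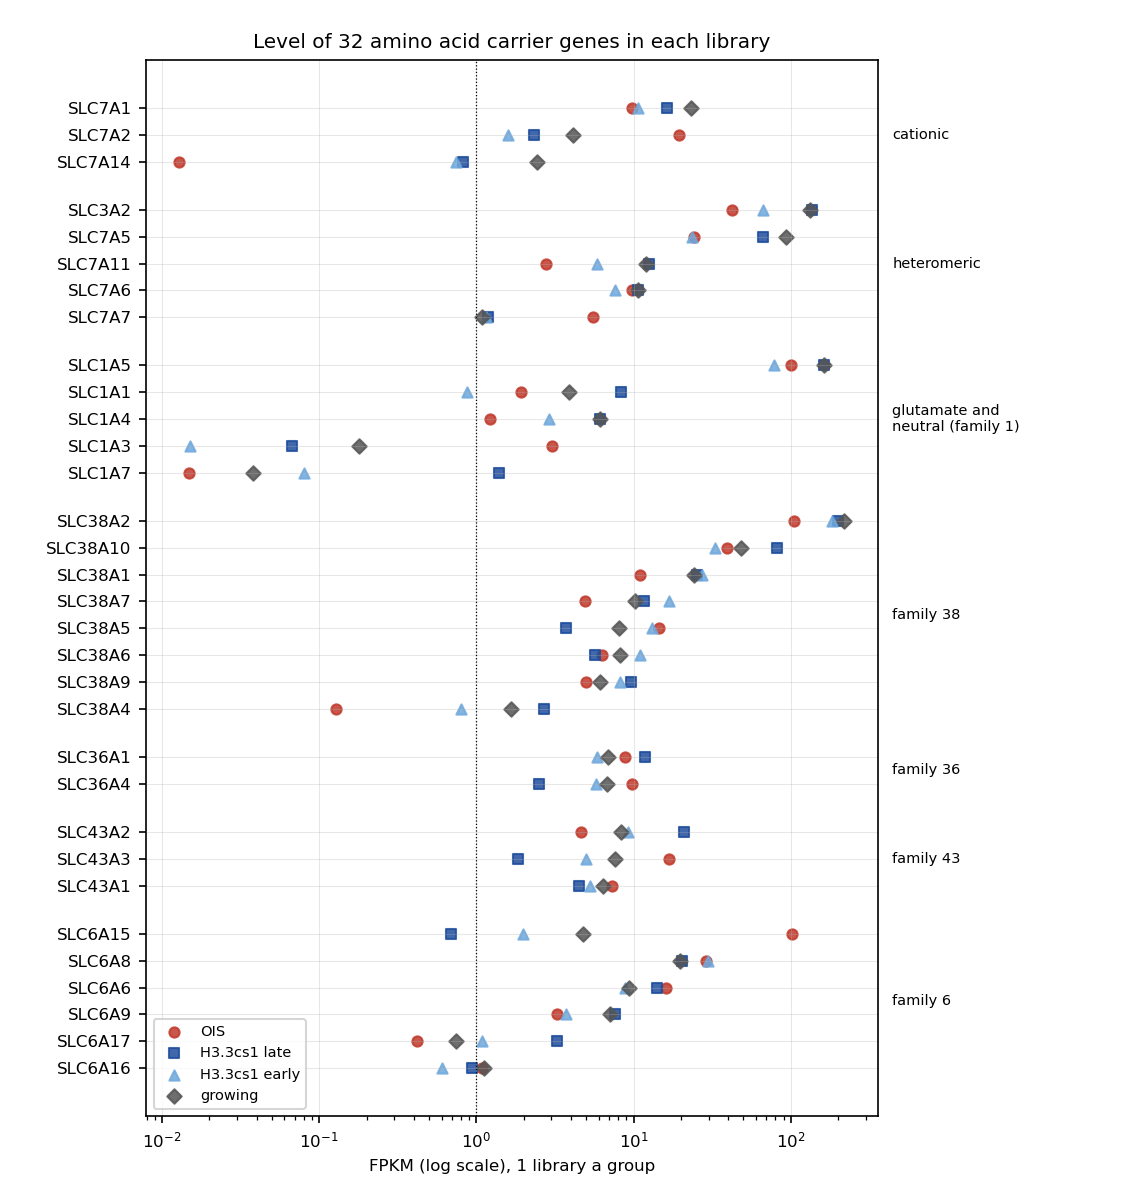
FPKM (log axis) of the 32 carrier genes at 1 FPKM or more in at least 1 library, grouped by role. Each point is 1 library: OIS (circles), H3.3cs1 late (squares), H3.3cs1 early (triangles) and growing (diamonds), and the dotted line marks 1 FPKM. For SLC6A15 the OIS point stands at 102 FPKM, far to the right of the other 3, while for SLC3A2, SLC7A5, SLC7A11 and SLC1A4 the late and growing points lie to the right of the OIS and early points.

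In OIS the carriers went both ways: SLC38A2, SLC3A2 and SLC7A5, of the 4 most abundant in growing cells, fell together with 6 less abundant members, while SLC1A5 stood at -0.70 in log2(FPKM + 1) and 5 others rose. Against growing cells, 9 of the 35 compared loci fell (25.7%) and 5 rose (14.3%), beside 8.17% and 9.13% of all compared genes. The members that fell were SLC7A5, SLC7A11, SLC7A14, SLC1A4, SLC3A2, SLC38A4, SLC7A1, SLC38A1 and SLC38A2, and those that rose were SLC6A15, SLC7A2, SLC1A3, SLC7A7 and SLC43A3. The median difference over the 35 loci was -0.29, against 0.032 over all compared genes. SLC1A3 passed the filter on low values through its OIS value alone, and SLC7A14 through its growing value alone. Of the 7 fibroblast markers found, 5 also fell in OIS (COL1A1, COL1A2, DCN, PDGFRB and THY1), 71.4% beside 8.17% of all compared genes. PDGFRA went the other way, at 52.3 FPKM in OIS and 27.3 in growing (0.91 in log2(FPKM + 1)), and VIM differed by -0.20. In H3.3cs1 early 2 fell (COL1A1 and DCN), 28.6% beside 3.96%. From early to late 3 of the 7 rose (COL1A1, COL1A2 and PDGFRB), 42.9% beside 5.47%, and 0 fell. In OIS against late the same 5 as against growing were lower, 71.4% beside 8.51%. PDGFRA was higher there, 14.3% beside 11.2%. The part of these fibroblast markers in the falls and rises of the carriers was not tested. The epithelial markers summed to 13.4 FPKM in OIS, 174 in H3.3cs1 late, 62.3 in H3.3cs1 early and 82.6 in growing cells, nearly all of it KRT18 and KRT19. KRT18 fell 5.74-fold and KRT19 fell 2.87-fold in OIS. In late against growing KRT18 rose 2.12-fold, and KRT19 differed by 0.31 in log2(FPKM + 1). In early KRT19 rose 3.56-fold, while KRT18 stood at -0.64. From early to late they went opposite ways, KRT18 by 1.72 and KRT19 by -1.52. The part of these markers in the differences of the carriers was not tested either.

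In H3.3cs1 late cells none of SLC38A2, SLC1A5, SLC3A2, SLC7A5 and SLC38A10 differed from growing by 2-fold, with differences from -0.49 (SLC7A5) to 0.76 (SLC38A10). Against growing cells, 3 of 35 rose (8.57%), SLC6A17, SLC43A2 and SLC1A7, beside 3.51% of all compared genes, and 3 fell (8.57%), SLC6A15, SLC43A3 and SLC36A4, beside 5.47%. The median difference was 0.047, against -0.040 over all compared genes. SLC1A7 passed the filter on low values through its late value alone.

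In H3.3cs1 early cells no carrier rose and 4 of 35 fell (11.4%), beside 1.40% of all compared genes higher and 3.96% lower. The members were SLC7A5, SLC1A1, SLC7A1 and SLC1A5. The median difference was -0.30, against -0.025 over all compared genes. Just short of 2-fold were SLC7A2, SLC7A14, SLC3A2, SLC6A15 and SLC7A11, with differences between -0.98 and -0.93. When each library was brought to one common sum of named genes, which moves the median of all genes to 0.19 in this comparison, 2 members fell, SLC7A5 and SLC1A1. Loci with no name took 57.9% of the summed FPKM in the early library and between 47.4% and 49.0% in the others, and the part of this in the early differences was not tested.

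From H3.3cs1 early to H3.3cs1 late, 9 of 35 rose (25.7%) and 2 fell (5.71%), beside 5.47% of all compared genes higher and 3.40% lower. Those that rose were SLC1A1, SLC7A5, SLC38A10, SLC1A7, SLC43A2, SLC38A4, SLC6A17, SLC1A5 and SLC3A2, and those that fell were SLC38A5 and SLC43A3. Of these, SLC1A7 passed the filter on low values through its late value alone. After rescaling to one sum, SLC1A5, SLC3A2, SLC38A4, SLC43A2 and SLC6A17 no longer passed 2-fold (0.78 to 0.93), nor did SLC1A5 (0.69) and SLC3A2 (0.72) after quantile normalization. With rescaling 4 rose and 4 fell, so the share of higher among the changed members went to 50% in place of 81.8%.

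Set against H3.3cs1 late, OIS had 8 of 35 loci higher (22.9%) and 13 lower (37.1%), beside 11.2% and 8.51% of all compared genes. Higher were SLC6A15, SLC43A3, SLC7A2, SLC1A3, SLC38A5, SLC36A4, SLC7A7 and SLC7A5P1. Lower were SLC43A2, SLC7A11, SLC38A4, SLC1A4, SLC1A1, SLC3A2, SLC6A17, SLC7A5, SLC1A7, SLC38A1, SLC38A7, SLC38A10 and SLC6A9. SLC1A3 and SLC7A5P1 passed the filter on low values through OIS alone, and SLC1A7 through late alone. The widest gap was that of SLC6A15, 60.6-fold higher in OIS. The differences of OIS and of both H3.3cs1 libraries from growing share the growing library, so their values are given side by side and no overlap is read from them.

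**Figure D2:**
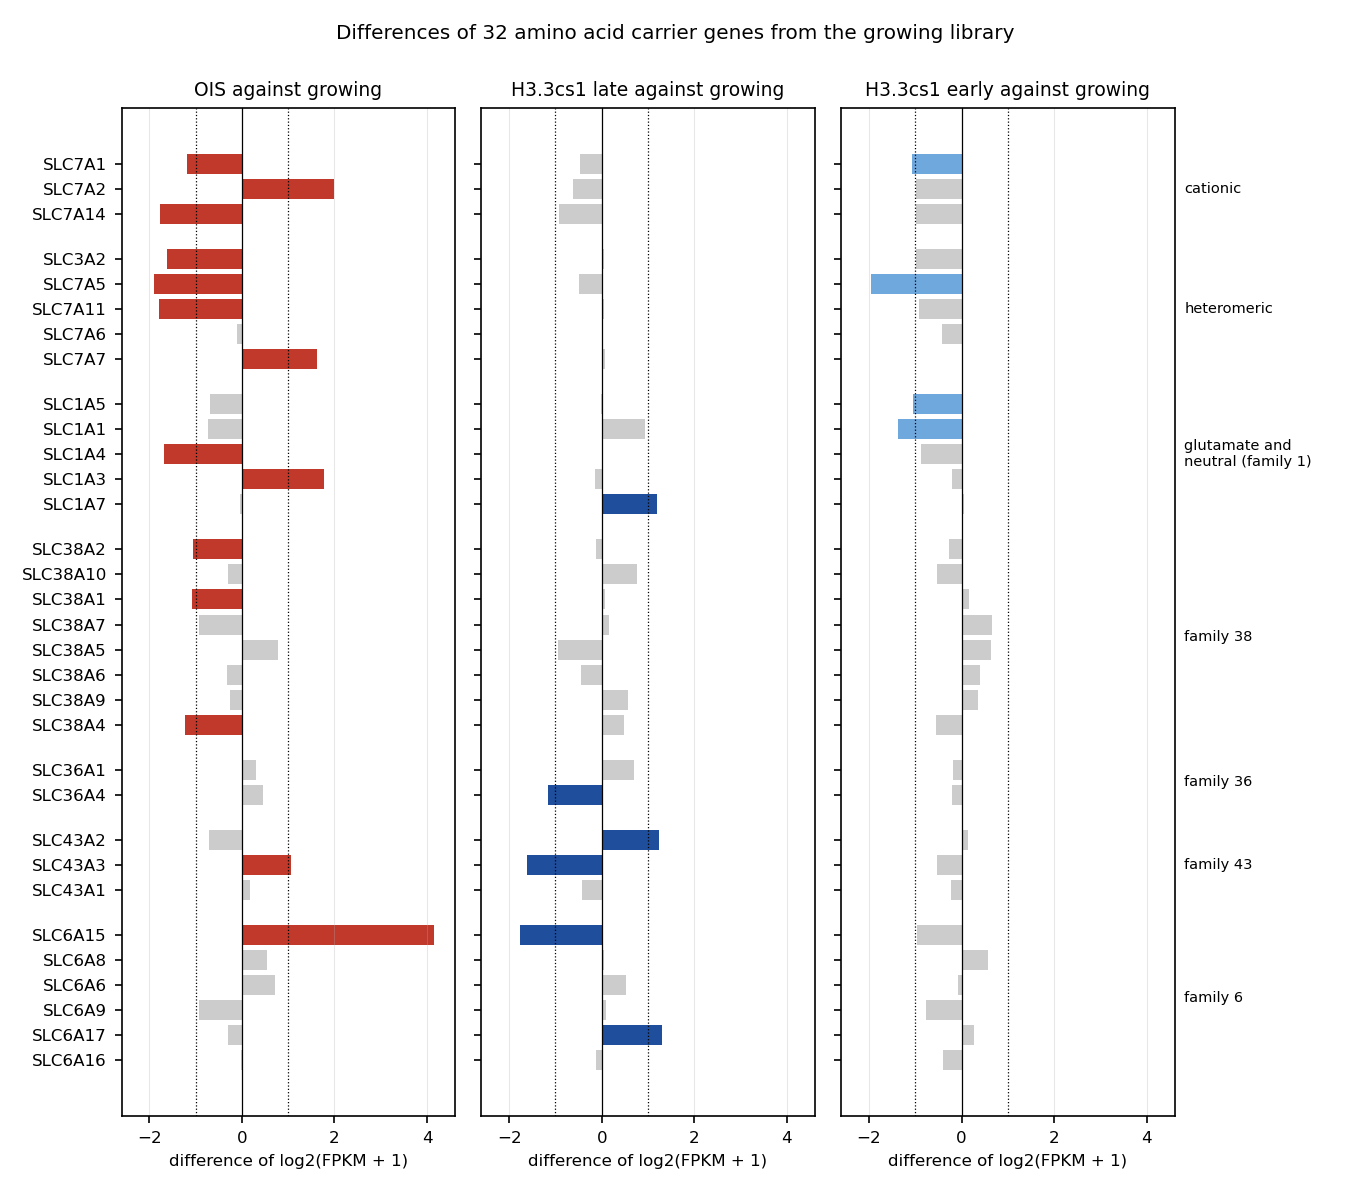
Difference of log2(FPKM + 1) from the growing library for the 32 carrier genes, in OIS (left), H3.3cs1 late (middle) and H3.3cs1 early (right). Coloured bars passed 2-fold (dotted lines at -1 and 1) and grey bars did not. The OIS panel holds 9 falls and 5 rises, the late panel 3 and 3, and the early panel 4 falls and no rise.

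Windows around the annotated starts of 6 carriers are shown with short motifs known from amino acid and stress responses, where they hold any. The RefSeq promoter table (GRCh38.p14, while the deposited values were made on hg19 and carry no coordinates) holds windows for 27 of the 32 carrier genes, 45 windows in all, each from 250 bases before a start to 50 after it. Motifs were searched on both strands as the C/EBP-ATF composite element TGATGNAA, through which ATF4 acts, the antioxidant response element TGACNNNGC, and the AP-1 site TGANTCA. SLC7A5 and SLC1A1 are printed as the members with the largest difference in early against growing and in late against early. SLC6A15 had the largest difference in each of the other comparisons but has no window, nor has SLC7A11, so neither is shown. SLC3A2, SLC7A1, SLC38A1 and SLC1A4 are printed because they fell in OIS and have the composite element. These 4 were chosen after their values were seen. Where they have more than 1 window, only the window with the element is printed. Sequences run 5′ to 3′ on the strand of the gene, with every match of a motif in capitals.
SLC3A2 (chr11:62881449-62881748, plus strand): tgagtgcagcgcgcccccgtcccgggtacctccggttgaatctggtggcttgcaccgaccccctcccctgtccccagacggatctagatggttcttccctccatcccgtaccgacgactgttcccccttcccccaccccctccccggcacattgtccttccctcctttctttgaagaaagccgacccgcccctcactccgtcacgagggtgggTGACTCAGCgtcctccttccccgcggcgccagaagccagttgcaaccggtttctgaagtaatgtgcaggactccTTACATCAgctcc
SLC7A5 (chr16:87869458-87869757, minus strand): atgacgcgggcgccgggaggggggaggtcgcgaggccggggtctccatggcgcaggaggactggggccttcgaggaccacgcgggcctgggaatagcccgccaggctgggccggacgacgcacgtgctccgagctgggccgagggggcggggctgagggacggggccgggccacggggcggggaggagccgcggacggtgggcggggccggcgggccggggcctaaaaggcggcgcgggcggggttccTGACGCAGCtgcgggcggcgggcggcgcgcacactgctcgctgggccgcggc
SLC7A1 (chr13:29595639-29595938, minus strand): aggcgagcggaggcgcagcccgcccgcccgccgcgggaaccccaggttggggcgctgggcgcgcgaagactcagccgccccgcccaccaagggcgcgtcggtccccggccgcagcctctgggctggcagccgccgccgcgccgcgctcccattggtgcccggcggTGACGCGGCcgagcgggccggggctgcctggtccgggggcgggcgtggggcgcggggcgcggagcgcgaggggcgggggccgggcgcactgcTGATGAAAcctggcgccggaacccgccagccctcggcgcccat
SLC38A1 (chr12:46266467-46266766, minus strand): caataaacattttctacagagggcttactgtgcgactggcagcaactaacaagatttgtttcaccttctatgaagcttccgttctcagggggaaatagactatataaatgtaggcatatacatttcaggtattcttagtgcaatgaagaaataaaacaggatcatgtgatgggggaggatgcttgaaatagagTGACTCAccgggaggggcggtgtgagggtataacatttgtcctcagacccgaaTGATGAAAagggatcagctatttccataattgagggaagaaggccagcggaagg
SLC1A4 (chr2:64989149-64989448, plus strand): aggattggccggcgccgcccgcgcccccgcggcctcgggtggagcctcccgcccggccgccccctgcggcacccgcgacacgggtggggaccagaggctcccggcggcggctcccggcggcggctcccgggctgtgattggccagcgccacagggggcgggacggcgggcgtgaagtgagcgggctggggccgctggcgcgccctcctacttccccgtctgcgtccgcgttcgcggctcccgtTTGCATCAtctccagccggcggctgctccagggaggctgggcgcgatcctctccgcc
SLC1A1 (chr9:4490218-4490517, plus strand): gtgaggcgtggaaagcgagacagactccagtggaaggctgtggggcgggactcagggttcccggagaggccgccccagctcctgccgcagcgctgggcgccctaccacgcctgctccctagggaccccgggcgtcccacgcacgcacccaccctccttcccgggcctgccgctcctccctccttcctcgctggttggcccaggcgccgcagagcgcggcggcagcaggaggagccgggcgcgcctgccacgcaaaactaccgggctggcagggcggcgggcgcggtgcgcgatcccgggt

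The composite element was found in 6 of the 45 windows (13.3%), 1 window each of SLC1A3, SLC1A4, SLC1A5, SLC38A1, SLC3A2 and SLC7A1, and in 3.62% of the 35116 windows of the table. In SLC3A2 it reads TTACATCA, its reverse complement form, from 38 to 45 bases after the start, and in SLC1A4 it reads TTGCATCA from base -7 to base 1. In SLC7A1 and SLC38A1 it reads TGATGAAA. Of the 9 members that fell in OIS, 8 have windows, and 4 of these have the composite element. Among all 27 carriers with windows, 6 have it. SLC7A5, SLC38A2, SLC38A4 and SLC7A14 fell in OIS without the element in their windows, while SLC1A3 has it and rose. The antioxidant response element was found in 7 windows (15.6%), beside 13.3% of the table, and the AP-1 site in 7 (15.6%), beside 7.71%. In SLC3A2 the AP-1 letters TGACTCA lie within the antioxidant element TGACTCAGC. The SLC1A1 window holds none of the motifs, and SLC7A5 holds the antioxidant element alone, across its start. These matches describe letters, and no binding was measured.

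The heteromeric carriers included 3 members that were low in OIS and early and higher in late and growing cells. SLC3A2, the heavy chain, was at 42.3 FPKM in OIS, 137 in H3.3cs1 late, 66.9 in H3.3cs1 early and 132 in growing cells. SLC7A5 (LAT1), which takes up leucine and other large neutral amino acids, was at 24.3 FPKM in OIS, 66.6 in H3.3cs1 late, 23.5 in H3.3cs1 early and 93.8 in growing cells. SLC7A11 (xCT), which imports cystine for glutathione in exchange for glutamate, was at 2.77 FPKM in OIS, 12.5 in H3.3cs1 late, 5.82 in H3.3cs1 early and 11.97 in growing cells. For each of the 3, both OIS and early lay below both late and growing. This layout was not particular to them. At differences of any size, SLC7A1, SLC7A14, SLC1A1, SLC1A4, SLC1A5, SLC38A2, SLC38A4, SLC38A10 and SLC6A9 had it too. The share of all compared genes with this layout was not counted. In OIS SLC7A5 fell 3.75-fold, SLC7A11 fell 3.44-fold and SLC3A2 fell 3.08-fold against growing cells. In H3.3cs1 early SLC7A5 fell 3.86-fold, while SLC3A2 (-0.98) and SLC7A11 (-0.93) lay just short of 2-fold. In H3.3cs1 late the differences from growing were 0.047 for SLC3A2, 0.053 for SLC7A11 and -0.49 for SLC7A5.

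Of the exchangers of arginine for neutral amino acids, SLC7A7 did not share this pattern. SLC7A6 had the same layout with small differences from growing, -0.11 in OIS and -0.43 in early. SLC7A7 (y+LAT1) was at 5.49 FPKM in OIS, 1.18 in H3.3cs1 late, 1.14 in H3.3cs1 early and 1.09 in growing cells, and rose 3.10-fold in OIS. SLC7A6 (y+LAT2) was at 9.74 FPKM in OIS, 10.7 in H3.3cs1 late, 7.59 in H3.3cs1 early and 10.6 in growing cells, with no difference of 2-fold. Summed, the 6 light chains that pair with SLC3A2 (SLC7A5, SLC7A6, SLC7A7, SLC7A8, SLC7A10 and SLC7A11) stood at 42.4 FPKM in OIS, 91.2 in H3.3cs1 late, 38.4 in H3.3cs1 early and 118 in growing cells. The heavy chain was 0.999 times that sum in OIS, 1.501 times in H3.3cs1 late, 1.74 times in H3.3cs1 early and 1.13 times in growing cells. SLC7A5 gave 57.3% of the light chain sum in OIS, 73.1% in H3.3cs1 late, 61.3% in H3.3cs1 early and 79.8% in growing cells, so it was the main light chain in each library and least so in OIS. The pseudogenes SLC7A5P1 (1.79 FPKM in OIS, 0.129 in late, 0.376 in early and 0.923 in growing) and SLC7A5P2 (0.191, 1.15, 0.518 and 0.865) resemble SLC7A5, so their values and its own are uncertain to the extent that they share fragments. SLC7A6 and SLC7A6OS (9.89, 13.5, 10.5 and 12.4 FPKM in the same order) overlap, and the handling of strand is not given in the sources used here.

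**Figure D3:**
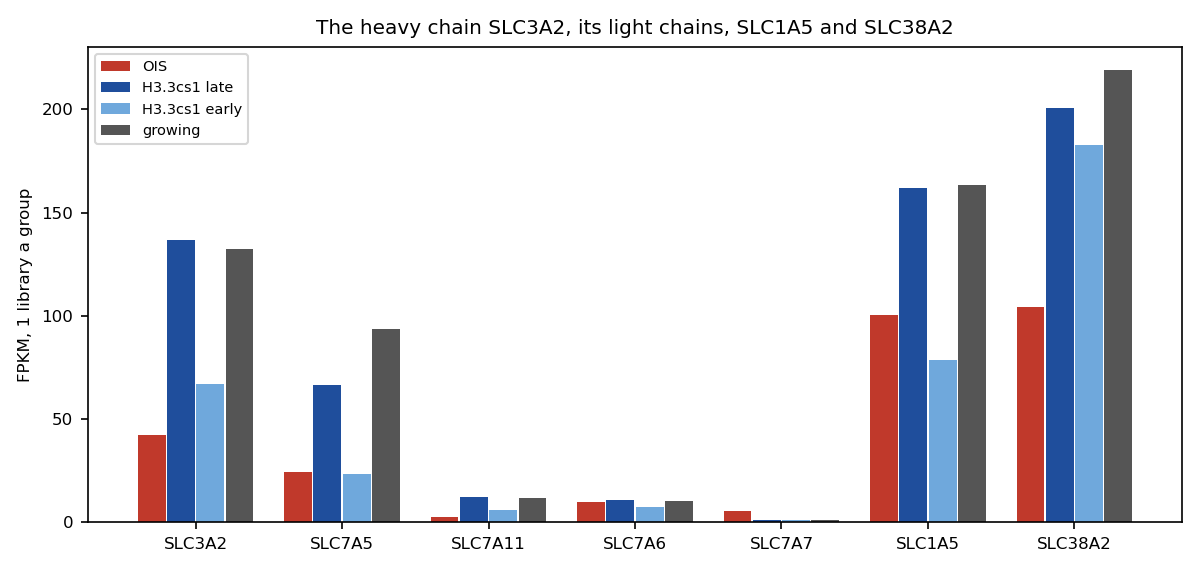
FPKM (linear axis from 0) of the heavy chain SLC3A2, 4 of its light chains and the neutral carriers SLC1A5 and SLC38A2, with 1 bar per library. The late and growing bars of SLC3A2 (137 and 132) stand above the OIS and early bars (42.3 and 66.9), and SLC38A2 is lowest in OIS alone (104).

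The carriers of cationic amino acids moved in opposite directions in OIS. SLC7A1 (CAT1), the widely expressed carrier of arginine and lysine, was at 9.75 FPKM in OIS, 16.4 in H3.3cs1 late, 10.6 in H3.3cs1 early and 23.2 in growing cells. SLC7A2 (CAT2), an arginine carrier known to be induced in activated macrophages, was at 19.4 FPKM in OIS, 2.33 in H3.3cs1 late, 1.59 in H3.3cs1 early and 4.12 in growing cells. SLC7A1 was highest in growing cells, and SLC7A2 was highest in OIS, where it stood above SLC7A1. In OIS SLC7A2 rose 3.98-fold and SLC7A1 fell 2.26-fold. In H3.3cs1 early SLC7A1 fell 2.09-fold, a difference that was -0.83 after rescaling to one sum. SLC7A14, a relative of these carriers, was at 0.0129 FPKM in OIS, 0.823 in H3.3cs1 late, 0.747 in H3.3cs1 early and 2.44 in growing cells, and fell 3.395-fold in OIS. SLC7A3 and SLC7A4 had no value above 0.0510 FPKM.

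Family 1 holds the neutral carriers SLC1A4 and SLC1A5 and the glutamate carriers. SLC1A5 (ASCT2), a main glutamine carrier, was at 100 FPKM in OIS, 162 in H3.3cs1 late, 78.6 in H3.3cs1 early and 164 in growing cells. SLC1A4 (ASCT1), which carries serine, alanine and cysteine, was at 1.22 FPKM in OIS, 6.10 in H3.3cs1 late, 2.88 in H3.3cs1 early and 6.09 in growing cells. Both had nearly equal late and growing levels and lower values in OIS and early. SLC1A4 fell 3.19-fold in OIS, and SLC1A5 fell 2.07-fold in early. The SLC1A5 difference was -0.79 after rescaling and -0.81 after quantile normalization, which ends the call.

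The glutamate carriers were low, with SLC1A1 and SLC1A7 highest in H3.3cs1 late and SLC1A3 highest in OIS. SLC1A1 (EAAT3) was at 1.93 FPKM in OIS, 8.33 in H3.3cs1 late, 0.875 in H3.3cs1 early and 3.90 in growing cells. It was thus highest in late and lowest in early cells, a 4.98-fold rise from early to late, and fell 2.61-fold in early against growing. SLC1A3 (EAAT1, known from astrocytes) was at 3.02 FPKM in OIS, 0.0674 in late, 0.0152 in early and 0.178 in growing, and rose 3.41-fold in OIS. SLC1A7 (EAAT5, known from the retina) was at 1.38 FPKM in late and at most 0.0802 in the other libraries, a 2.30-fold rise in late against growing. SLC1A3 and SLC1A7 passed the filter on low values through the library in which they were high.

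Family 38 holds sodium-coupled carriers of glutamine, alanine and other small neutral amino acids. In OIS 3 of its 8 compared members fell and none rose (37.5% and 0%, beside 8.17% and 9.13% of all compared genes). SLC38A2 (SNAT2), a carrier known to be raised by amino acid shortage, was at 104 FPKM in OIS, 201 in H3.3cs1 late, 183 in H3.3cs1 early and 219 in growing cells. SLC38A1 (SNAT1) was at 10.9 FPKM in OIS, 25.5 in H3.3cs1 late, 27.2 in H3.3cs1 early and 24.3 in growing cells. Both were low in OIS alone, where SLC38A1 fell 2.12-fold and SLC38A2 fell 2.09-fold. The differences of the H3.3cs1 libraries from growing lay between -0.26 and 0.16 in log2(FPKM + 1) for these 2 genes. SLC38A4 (SNAT4) was at 0.129 FPKM in OIS, 2.71 in late, 0.801 in early and 1.65 in growing, and fell 2.35-fold in OIS.

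SLC38A5 (SNAT5) ran the other way in H3.3cs1 late, at 14.5 FPKM in OIS, 3.70 in H3.3cs1 late, 13.0 in H3.3cs1 early and 8.08 in growing cells. It fell 2.99-fold from early to late, and its difference between late and growing was -0.95. SLC38A10 was at 39.1 FPKM in OIS, 82.4 in H3.3cs1 late, 32.9 in H3.3cs1 early and 48.2 in growing cells, and rose 2.46-fold from early to late. SLC38A7, a lysosomal carrier that exports glutamine, was at 4.92 FPKM in OIS, 11.6 in late, 16.8 in early and 10.3 in growing. It was lowest in OIS, 2.13-fold below late, while its difference from growing was -0.93. SLC38A9, the lysosomal arginine sensor of mTORC1, ranged from 4.97 FPKM in OIS to 9.66 in late, and SLC38A6 from 5.68 in late to 11.0 in early, with no difference of 2-fold.

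Family 43 holds carriers that work without a coupled ion, and SLC43A3 and SLC43A2 ran opposite to each other. SLC43A3, a family member known to carry purine nucleobases, was at 16.9 FPKM in OIS, 1.83 in H3.3cs1 late, 5.01 in H3.3cs1 early and 7.64 in growing cells. SLC43A2 (LAT4), which lets branched-chain amino acids and phenylalanine leave the cell, was at 4.64 FPKM in OIS, 20.9 in H3.3cs1 late, 9.18 in H3.3cs1 early and 8.27 in growing cells. The first gene was highest in OIS and lowest in late, and the second was the reverse. SLC43A3 fell 3.05-fold in late and rose 2.07-fold in OIS, the last just past the threshold and short of it after rescaling (0.83) and quantile normalization (0.99). SLC43A2 rose 2.36-fold in late and stood at -0.72 in OIS. SLC43A1 (LAT3) ranged from 4.48 FPKM in late to 7.35 in OIS.

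In the proton-coupled family 36, SLC36A4, a carrier with high affinity for proline and tryptophan, was at 9.74 FPKM in OIS, 2.52 in H3.3cs1 late, 5.79 in H3.3cs1 early and 6.82 in growing cells. It was lowest in late, where it fell 2.22-fold against growing. SLC36A1 (PAT1), which moves amino acids out of the lysosome, ranged from 5.88 FPKM in early to 11.9 in late, with no difference of 2-fold.

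In family 6, SLC6A15 had the widest range of all compared carriers. SLC6A15 (B0AT2), a sodium-coupled carrier of proline and branched-chain amino acids known mainly from the brain, was at 102 FPKM in OIS, 0.694 in H3.3cs1 late, 1.98 in H3.3cs1 early and 4.79 in growing cells. It rose 17.7-fold in OIS and fell 3.42-fold in late against growing, and in OIS its level was about that of SLC1A5 (100 FPKM). The neuron markers summed to 175 FPKM in OIS, 163 in late, 243 in early and 243 in growing, nearly all of it TUBB3, with RBFOX3 at most 0.221 FPKM. SYP, another of these 5 markers, stood at 1.504 FPKM in OIS and at most 0.249 in the others. The endothelial markers summed to 17.6 FPKM in OIS and to between 1.04 and 2.01 in the other libraries, through CLDN5 and TIE1, with CDH5 at 0 in each. The part of these markers in the carriers that rose in OIS was not tested.

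SLC6A17, a carrier of neutral amino acids into synaptic vesicles in rodents, was at 0.421 FPKM in OIS, 3.28 in H3.3cs1 late, 1.08 in H3.3cs1 early and 0.738 in growing cells, and rose 2.46-fold in late. SLC6A9 (GlyT1), a glycine carrier, was at 3.26 FPKM in OIS, 7.64 in late, 3.71 in early and 7.05 in growing as the sum of 2 lines, and its differences from growing stayed short of 2-fold. Its lines went apart. One stood at 1.12 FPKM in OIS, 7.11 in late, 2.99 in early and 6.56 in growing, and the other at 2.13, 0.531, 0.717 and 0.484 FPKM across those libraries. Taken singly, the first line fell and the second rose in OIS against growing, each past 2-fold, which the sum does not show. With the higher of the 2 lines taken in each library, the OIS difference was -1.27, past 2-fold. That value sets 2.13 FPKM of one line in OIS against 6.56 of the other in growing, so it belongs to neither line. The creatine carrier SLC6A8 ranged from 19.7 FPKM in growing to 29.9 in early, and the taurine carrier SLC6A6 from 8.81 in early to 16.0 in OIS, with no difference of 2-fold. SLC6A16, listed with MIR4324 as a joined locus, ranged from 0.602 to 1.12 FPKM. SLC6A8 resembles the pseudogene SLC6A10P, which was at most 0.126 FPKM.

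Across the 32 carrier genes, OIS held the lowest value for 14 and the highest for 9, and H3.3cs1 late the lowest for 6 and the highest for 13. H3.3cs1 early held the lowest value for 10 and the highest for 4, and growing cells the lowest for 2 and the highest for 6. OIS was lowest for 43.8% of the carriers, beside 30.8% of all compared genes, and highest for 28.1%, beside 37.8%. H3.3cs1 late was lowest for 18.8%, beside 32.1%, and highest for 40.6%, beside 23.7%. H3.3cs1 early was lowest for 31.2%, beside 20.003%, and highest for 12.5%, beside 18.5%. Growing cells were lowest for 6.25%, beside 17.1%, and highest for 18.8%, beside 19.995%. These shares describe 1 library a group, and library scaling moves them.

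The genes that respond to amino acid shortage did not follow the carriers as 1 group in OIS. Of 18 genes of the ATF4 pathway, 4 rose and 2 fell in OIS (22.2% and 11.1%, beside 9.13% higher and 8.17% lower of all compared genes), with a median of 0.29 against 0.032 over all compared genes. TRIB3, a pseudokinase target of ATF4, was at 68.0 FPKM in OIS, 8.88 in H3.3cs1 late, 7.79 in H3.3cs1 early and 10.4 in growing cells, and rose 6.06-fold in OIS. ASNS, asparagine synthetase, was at 7.74 FPKM in OIS, 26.1 in H3.3cs1 late, 11.5 in H3.3cs1 early and 31.1 in growing cells, and fell 3.67-fold in OIS. Like SLC3A2, SLC7A5 and SLC7A11, ASNS was lower in OIS and early than in late and growing, while TRIB3 was high in OIS alone. CEBPB also rose in OIS (4.86-fold), and NUPR1, a stress-induced chromatin protein, fell 5.59-fold. ATF4 itself was at 220 FPKM in OIS, 195 in late, 121 in early and 197 in growing, with no difference of 2-fold.

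In H3.3cs1 late, NUPR1 (2.17-fold) and STC2 (2.23-fold) rose. DDIT4 (2.69-fold) and CHAC1, an enzyme that breaks down glutathione (2.29-fold), fell the most among 3 that fell, with a list median of 0.14. The shares were 11.1% higher and 16.7% lower, beside 3.51% and 5.47% of all compared genes. In early, NUPR1 rose 2.07-fold while CHAC1 fell 3.74-fold and ASNS fell 2.56-fold, with a median of -0.36. These were 5.56% higher and 11.1% lower, beside 1.40% and 3.96% of all compared genes. From early to late ATF3, ASNS and STC2 rose and none of the 18 fell (16.7% and 0%, beside 5.47% and 3.40%).

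Among 17 compared genes that make serine, glycine, proline, aspartate and other amino acids, 3 fell and 1 rose in OIS (17.6% and 5.88%, beside 8.17% and 9.13% of all compared genes), with a median of -0.25. PSAT1 and PHGDH, enzymes of serine synthesis, were low in OIS: PSAT1 was at 7.06 FPKM in OIS, 46.3 in late, 22.8 in early and 53.3 in growing, and fell 6.74-fold. PHGDH was at 11.6 FPKM in OIS, 22.4 in late, 18.0 in early and 54.3 in growing, and fell 4.38-fold in OIS, 2.36-fold in late and 2.91-fold in early. SHMT1, which makes glycine from serine, fell 3.03-fold in OIS and 2.14-fold in late. ASS1, which makes the precursor of arginine, was at 19.6 FPKM in OIS, 17.2 in late, 16.6 in early and 6.99 in growing, and rose in all 3 comparisons with growing. In late GLUL, glutamine synthetase, fell 2.20-fold. There 3 members fell and 1 rose (17.6% and 5.88%, beside 5.47% and 3.51% of all compared genes, median -0.20). In early 2 fell and 1 rose (11.8% and 5.88%, beside 3.96% and 1.40%, median -0.47).

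In the amino acid sensing and mTORC1 list, none of 27 compared genes passed 2-fold in OIS or late against growing. Its medians were -0.071 in OIS, 0.064 in late and 0.27 in early, beside 0.032, -0.040 and -0.025 over all compared genes. In early 1 rose (3.70%, beside 1.40% of all compared genes) and none fell. It was RRAGC, a Rag GTPase, at 12.5 FPKM in OIS, 17.9 in late, 38.03 in early and 13.2 in growing (2.76-fold). From early to late RRAGC and FNIP1 fell (7.41%, beside 3.40%) and none rose. Set against late, OIS had SEH1L higher (3.70%, beside 11.2%) and SESN3 lower (3.70%, beside 8.51%). The 8 compared amino acid carriers of mitochondria and lysosomes outside the naming rule, such as SLC25A12, SLC25A38 and CTNS (cystine), had no 2-fold difference in the 5 comparisons. Of all compared genes, between 1.40% and 11.2% were higher and between 3.40% and 8.51% lower in these comparisons. The 12 housekeeping genes had none either, with medians of -0.11 in OIS, -0.30 in late and -0.22 in early against growing. Among them ACTB was low in OIS and early, as SLC3A2 was. It stood at 2916 FPKM in OIS, 5623 in late, 3169 in early and 5616 in growing, with differences of -0.95, 0.0017 and -0.83. Of the 12, 5 lay above growing in OIS and 4 in early. The part of this in the differences of the carriers was not tested.

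Among 16 genes of cystine use and glutathione, 3 rose and 1 fell in OIS (18.8% and 6.25%, beside 9.13% and 8.17% of all compared genes), with a median of 0.17. GGT1, which breaks down extracellular glutathione, rose 3.53-fold to 4.48 FPKM, CTH, which makes cysteine, rose 2.91-fold to 5.06 FPKM and GCLC, the catalytic subunit of the first step of glutathione synthesis, rose 2.14-fold to 14.6 FPKM, while CHAC2 fell 2.94-fold. These rises stood beside the 3.44-fold fall of the cystine carrier SLC7A11 in the same library. In late none of the 16 passed 2-fold, beside 3.51% of all compared genes higher and 5.47% lower. In early CBS alone fell, 2.05-fold (6.25%, beside 3.96%), and none rose.

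Among 15 compared genes that break down or use glutamine, branched-chain amino acids, arginine and tryptophan, 4 rose and none fell in OIS (26.7% and 0%, beside 9.13% and 8.17% of all compared genes), with a median of 0.027 against 0.032 over all compared genes. KYNU, an enzyme of tryptophan breakdown, was at 41.7 FPKM in OIS, 0.647 in late, 1.43 in early and 0.598 in growing, a 26.7-fold rise. SAT1, which acetylates polyamines, was at 347 FPKM in OIS, 22.9 in late, 37.6 in early and 14.9 in growing, a 21.9-fold rise. ODC1, which makes the first polyamine from ornithine, rose 2.44-fold and BCKDHA, a subunit of the branched-chain keto acid dehydrogenase, rose 2.49-fold in OIS. In late ODC1 fell 2.06-fold and in early SAT1 rose 2.43-fold, with medians of -0.19 and -0.014.

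**Figure D4:**
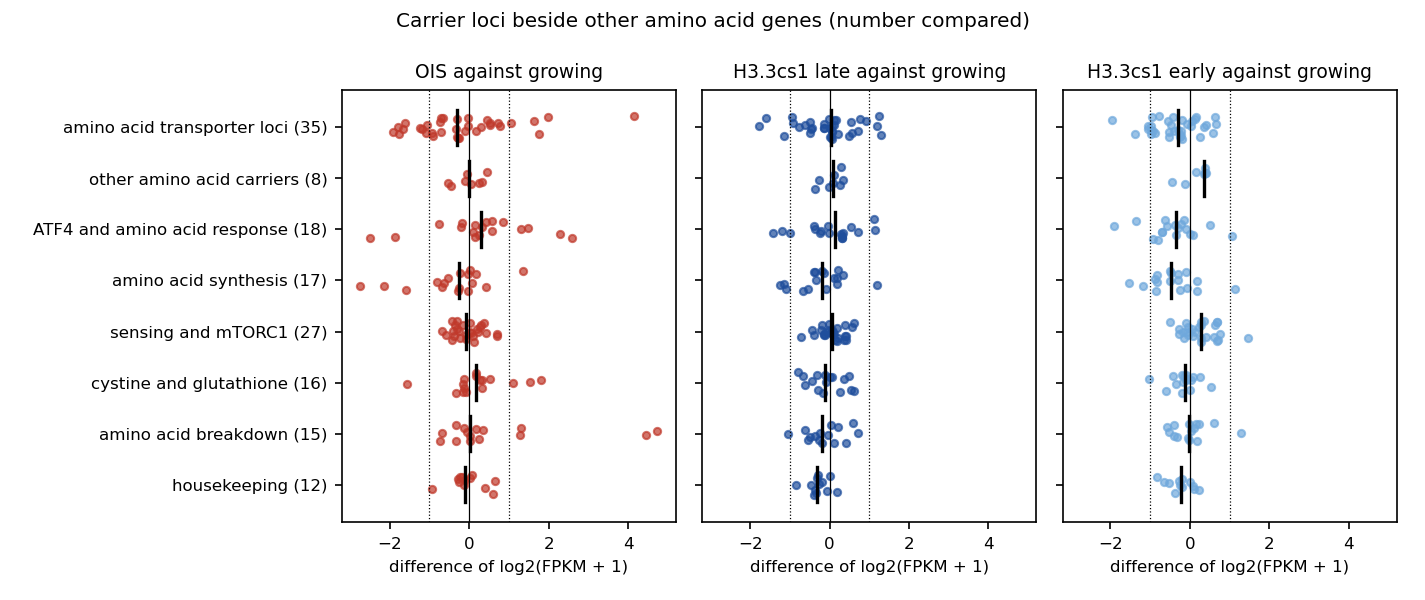
Differences of log2(FPKM + 1) from the growing library for the 35 compared carrier loci and 7 other gene lists, in OIS (left), H3.3cs1 late (middle) and H3.3cs1 early (right). Each point is 1 gene, the thick tick is the list's median and dotted lines mark 2-fold. The sensing, other carrier and housekeeping lists lie within the dotted lines in OIS, while carrier loci reach from -1.91 to 4.15.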

How the data were processed

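Poly(A) RNA of 4 IMR90 libraries, 1 per group, was sequenced, per the labels' protocols. The FPKM values were computed by the authors, with 1 value per locus in each deposited file. As tools and build, with no role or order, TopHat2 2.0.3, Bowtie2, Cufflinks 2.1.1 and hg19 stand in the submitters' processing notes. Read counts, the use of strand and scaling across libraries were not given in the sources used here, so depth is unknown beyond a rough ratio. The first line of each file names libraries other than, or besides, its own. All 4 lines fit the head of a wider table that lacks a name for its locus column, a reading that no source states, so these lines were not used and each file was matched to its sample by the GEO record. Of these matches, that of OIS has a check in the values, its high HRAS. H3F3B stood higher in H3.3cs1 late (450 FPKM) and early (229) than in growing (105) and OIS (90.5), while H3F3A did not. That sets the H3.3cs1 libraries apart from the others but is no check of late against early. Groups came from the sample titles.

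Of 26468 loci, 2310 have no name and were left out. Lines of one name were summed, and joined names were kept. Genes at 1 FPKM or more in at least 1 library were compared as log2(FPKM + 1), with a size rule of 2-fold and no test (Python 3.11.15, pandas 2.3.3). Relative depth is the most common ratio of values under 0.1 FPKM. The steps were checked on simulated data. The members, lists and 9 processing alternatives were chosen with earlier results of these data known. Members at 1 FPKM or more are named, and of each companion list up to 4 genes with the largest differences past 2-fold in a comparison. ATF4, ACTB and some carriers outside the naming rule are named as well, though not past 2-fold. The heteromeric sums and the extra promoters were added after values were seen. Some items are not reported here.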

Additional observations from a re-analysis of the deposited data

Results flagged for a closer look

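SLC6A15 differed from growing cells in opposite directions in OIS (log2 difference 4.15) and H3.3cs1 late (-1.77). SLC43A3 did so as well, with 1.05 in OIS and -1.61 in H3.3cs1 late. Both differences of each gene share the growing library, and with 1 library a group the difference between OIS and H3.3cs1 late was not tested.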

How the results depend on the processing

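Of 56 differences of carrier loci past 2-fold over the 5 comparisons, 48 stayed past it under each of the 9 alternatives that gave a value, and no difference past 2-fold changed sign. The 8 others were lost after rescaling to one sum or quantile normalization. With a pseudocount of 0.1, the loci lower than growing numbered 6 in H3.3cs1 late (3 with a pseudocount of 1) and 11 in H3.3cs1 early (4), and 5 were lower in late than early (2). With a filter at 5 FPKM, 1 locus was higher in late than growing (3 with the filter at 1). After rescaling, 2 were lower in early than growing, and 4 were higher and 4 lower in late than early. Without a filter the median difference of OIS from late was -0.0087 over 64 loci, since genes near 0 hold it there. Of all changed genes, the share that was higher went to 37.7% in place of 52.8% in OIS, 48.3% in place of 26.1% in early, 36.4% in place of 61.7% from early to late and 41.3% in place of 56.8% in OIS against late after rescaling, which moved the median of all genes to -0.16 (OIS), 0.19 (early), -0.26 (late against early) and -0.11 (OIS against late). In early it was 38.5% and from early to late 50.6% with a pseudocount of 0.1. The share of higher among changed carrier loci in late was 25.0% with the filter at 5 FPKM and 40.0% with a pseudocount of 0.1, in place of 50%. No paired analysis was possible because each group has 1 library, and for the same reason no library could be left out. Depth is known only roughly, and values under 1 FPKM may rest on few fragments.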
